A study of Mus musculus with 4 samples.

Results

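The cytosolic ribosomal protein genes were taken as the rows of the count table whose symbols begin with Rpl or Rps and a number, or with Rplp and a number, leaving out rows named -ps or -rs and the Rps6k kinase genes. They came to 89 of 15305 rows. Of these, 76 are standard ribosomal protein genes, 46 of the large and 30 of the small subunit. The other 13 are look-alikes, that is, paralogs, retrogene copies or genes that share the name stem: Rpl7l1, Rpl22l1, Rpl36al, Rps4l, Rps19bp1, Rps27l, Rps27rt, Rpl35rt, Rpl37rt, Rpl27rt, Rpl6l, Rps3a2 and Rps3a3. The study profiled single cells from the subventricular zone and striatum of Penk-Cre Ai9 mice, with the genotype labelled WT, in which Cre expressed from Penk switches on the reporter tdTomato. Dataset A held 41 cells sorted as tdTomato+/CD11b-, and dataset B held 41 cells sorted as tdTomato+ without that antibody. No treatment is named, and neither the age nor the number of animals is given in the sources used here. In each dataset the labels name 1 sample as neuroblast and 1 as quiescent neural stem cells, but the columns give only dataset, plate and well, so no cell could be tied to a labelled cell type.

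The ribosome has a small subunit, which decodes the mRNA, and a large subunit, which joins amino acids. Each cytosolic ribosomal protein enters a subunit in a fixed proportion to the others. Their mRNAs are among the most abundant of most cells, and many begin with a terminal oligopyrimidine tract through which growth signalling by mTOR sets their translation. In the adult subventricular zone, quiescent neural stem cells are known for low protein synthesis, which increases when they are activated and give rise to neuroblasts.

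Cells were divided by 2 genes that are not ribosomal. Sox11, a transcription factor of newborn neurons, was required at 10 or more counts, which 16 cells of dataset A and 25 in dataset B reached. Enpp2, which encodes the secreted enzyme autotaxin and is abundant in the choroid plexus, was required at 1% or more of a cell's counts, which 14 cells in dataset A and 16 in dataset B reached. The rest, with neither, comprised 9 dataset A cells and 0 dataset B cells. In dataset A, 2 cells met both rules and were set apart. Of a neuroblast list of 22 genes, Sox11 cells had a median of 15 at 10 or more counts in dataset A and 16 in dataset B, against 1 in the Enpp2-rich cells of either dataset. Of a choroid plexus epithelium list of 18 genes, Enpp2-rich cells had a median of 13.5 in dataset A and 10.5 in dataset B. Sox11 cells had a median of 2 in dataset A and 0 in dataset B on that list. Both lists include the gene that made the class.

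Total counts ran from 530630 to 7765650 per cell with a median of 2046542. Levels are given as CPM, a cell's counts scaled to a total of 1000000 without Ttr and Enpp2, because Ttr, the transthyretin gene of the choroid plexus, took up to 69.3% of the counts of an Enpp2-rich cell. The highest Ttr share, 78.2%, was in a Sox11 cell of dataset A whose Enpp2 share of 0.999% lay just under the 1% required. That cell had 24537.9 CPM of ribosomal protein mRNA. A CPM is a share of a library, so less ribosomal protein mRNA and more of other mRNA cannot be told apart. The table has a further limit. All counts of dataset A lie in the first 9521 rows, and the 5784 rows after them are at 0 in every dataset A cell. The genes Rps10, Rpl24, Rpl6l and Rps4l lie in those later rows, so their 0 in dataset A cannot be told apart from a gene that was not counted there.

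Together the 89 genes made up a small share of each cell's counts: 0.00162% in the lowest cell, 0.77% in the median cell and 5.86% in the highest. In the Sox11 cells of dataset A the summed level was 3442 CPM in the lowest cell, 11170.4 in the median cell and 58620.4 in the highest. Sox11 cells of dataset B ran from 3308 CPM through a median of 8499 to 15738. Enpp2-rich cells ran from 2137 CPM through 5545 to 11689.7 in dataset A, and from 4774 through 8187 to 16211 in dataset B. The ranges of both classes overlapped in both datasets.

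Summing the counts of a class within a dataset gave 4 pools, which were taken as the samples. The Sox11 pools held 19059.7 CPM of ribosomal protein mRNA in dataset A and 8162 in dataset B, and the Enpp2-rich pools held 6620.2 and 8199. The log2 ratio of the Sox11 to the Enpp2-rich pool came to 1.53 for dataset A and -0.0067 for dataset B. The mean was 0.76 ± 1.08 (SD, n = 2 datasets), so the spread between datasets exceeded the difference. Within dataset B, 3 plates held both classes. Their Sox11 and Enpp2-rich cells had 7661 and 9248 CPM on the first, 8024 and 10889.2 on the third and 6897 and 6791 on the fourth. These values came from 12 and 2, 3 and 4, and 4 and 10 cells. Dataset A came from 1 plate. With Ttr and Enpp2 kept in the total, the share of ribosomal protein counts was 1.7% and 0.816% in the Sox11 pools and 0.359% and 0.656% in the Enpp2-rich pools.

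**Figure D1:**
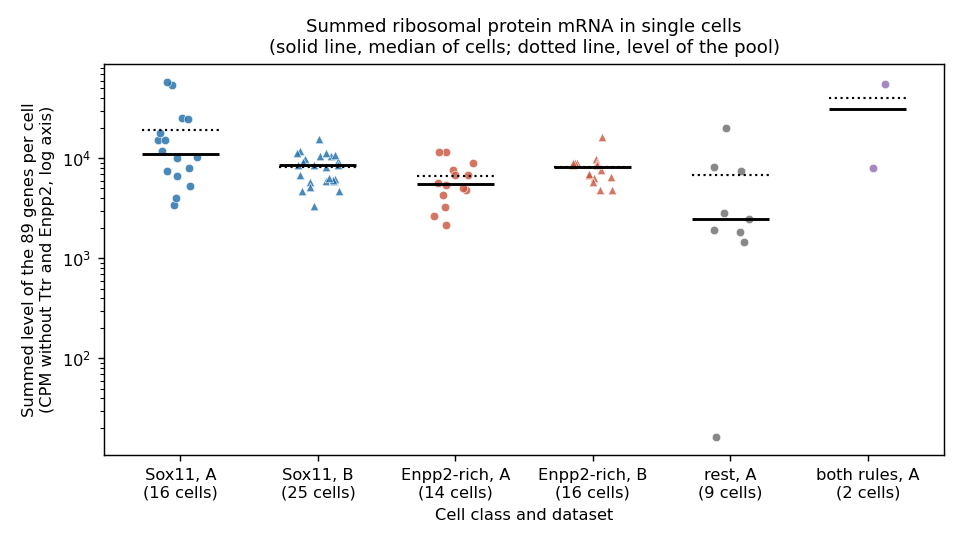
Summed CPM of the 89 ribosomal protein genes in each cell on a log axis, by class and dataset; circles are dataset A, triangles dataset B, the solid line is the median of cells and the dotted line the level of the pool. The classes overlap, the 7 cells above 16211 CPM are all of dataset A, and 1 cell of the rest lies at 16.2 CPM.

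The Sox11 pool of dataset A held several cells of high level. In all, 7 cells exceeded the highest cell of dataset B, of which 5 were Sox11 cells of dataset A, 1 met both rules and 1 was of the rest. The highest Sox11 cell, at 58620.4 CPM, had 20 Sox11 counts, 4 neuroblast list genes, 7 of 16 microglia list genes and 5 choroid plexus list genes at 10 or more counts. The next, at 54564.4 CPM, had 49 Sox11 counts, 12 neuroblast genes and 0 of either other list. The choroid plexus list summed to between 0 and 44199.3 CPM in the Sox11 cells of dataset A, with Tmem72 at 0 throughout, and to at most 1.12 CPM in those of dataset B. The microglia list reached 55971.7 CPM in the former, where C1qa, C1qb, C1qc, Aif1, P2ry12, Tmem119, Itgam, Trem2 and Cd68 were at 0, and 969.2 CPM in the latter. Leaving out the Sox11 cells of mixed markers, 4 in dataset A and 3 in dataset B, gave pools of 13346.2 and 7836 CPM, and without those 4 the log2 ratio to the Enpp2-rich pool of dataset A was 1.01. Requiring 100 Sox11 counts, which moved the 2 highest cells out of the class, gave 10887.6 CPM in dataset A, against 6698 CPM in the Enpp2-rich pool, and left the Sox11 pool of dataset B as it was. Those 2 cells then joined the rest, whose pool rose from 6838 to 18047.9 CPM, above the Sox11 pool of dataset A.

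With the 10 Sox11 counts of the class rule, the rest had low levels in most of its cells and detected few of the genes. Its pool held 6838 CPM, while its cells ran from 16.2 CPM through a median of 2451 to 20281.2. A list of 20 genes of quiescent stem cells and astroglia, 18 of them in the table, divided these 9 cells. In 5 cells, 11 to 14 of those genes had 10 or more counts. Gfap and Vcam1, which are on the list, were at 0 in every cell of the rest. Those 5 cells had 1451 to 2876 CPM of ribosomal protein mRNA with a median of 1926, and detected 9 to 12 of the 89 genes, although they had a count in 1286 to 1537 genes of the table. The other 4 cells stood at 16.2, 7444, 8157 and 20281.2 CPM. The cell at 16.2 CPM had 428967 CPM on the oligodendrocyte list, with 2 list genes at 10 or more counts. Of the 8 genes of that list in the table, Mog and Mag were at 0 in every cell of the rest. The part of this list in that cell's level was not tested. The cell at 7444 CPM had 6 astroglia list genes at 10 or more counts, summing to 27933 CPM, and 2 of 16 microglia list genes, summing to 23824 CPM. C1qa, C1qb, C1qc, Csf1r, Cx3cr1, P2ry12 and Tmem119 were at 0 in every cell of the rest. A cell of dataset A that met both class rules had 17 astroglia list genes at 10 or more counts, 8051 CPM and 46 of the ribosomal protein genes. That cell had a count in 3181 genes of the table and had 10 choroid plexus list genes at 10 or more counts.

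Against the rest, which had 1 pool, no test was made, and pools were compared on log2(CPM + 1) over genes with at least 30 counts in dataset A. Of 82 ribosomal protein genes so covered, 60 were at least 2-fold lower in the rest than in the Sox11 pool and 8 at least 2-fold higher. Over all 7380 genes covered, 49.0% were lower and 27.8% higher by that much. The median difference was -1.93 for the ribosomal protein genes and -0.92 for all genes. Against the Enpp2-rich pool, 31 were lower and 16 higher, beside 33.1% and 34.2% of all genes, with medians of -0.11 and 0. Single cells decided most values of the rest: 71 of the 74 genes with a count there took more than 50% of their counts from 1 cell.

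Detection was measured after each cell was thinned at random to 200000 counts, which every cell reached. Sox11 cells then had a count in a median of 35 of the 89 genes in dataset A and 39 in dataset B. Enpp2-rich cells had 27.5 and 38, and the rest had 9. Without thinning the medians were 40.5 and 43, 32 and 41.5, and 12. The difference of the class medians, Sox11 less Enpp2-rich, was 7.5 genes in dataset A and 1 in dataset B, a mean of 4.25 ± 4.6 (SD, n = 2 datasets). Over all cells and without thinning, between 8 and 80 of the genes had a count, and no gene had one in all 82 cells.

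Among single genes, detection ran from nearly every cell to almost none. The median standard gene had a count in 38 of 82 cells, and 31 of the 76 had one in more than 50% of the cells. Rpl35, a protein of the large subunit near the exit tunnel, was found in the most cells, 69, followed by Rps27 in 68. After thinning, Rpl41, the shortest ribosomal protein, was found in 16 of 16 Enpp2-rich cells of dataset B and 13 of 14 of dataset A, and in 17 of 25 and 11 of 16 Sox11 cells. The median standard gene was found in 50% of the Sox11 cells of dataset A and 48% of those of dataset B, in 35.7% and 50% of the Enpp2-rich cells, and in 16.7% of the rest. In the rest, 1 standard gene, Rplp1, was found in more than 50% of the cells, and 11 were found in none. With 9 cells, a gene found in 1 cell has a share of 11.1% with an exact 95% binomial interval of 0.28% to 48.2%. Such intervals cover counting error only, and PCR reads without molecular identifiers are not independent molecules.

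**Figure D2:**
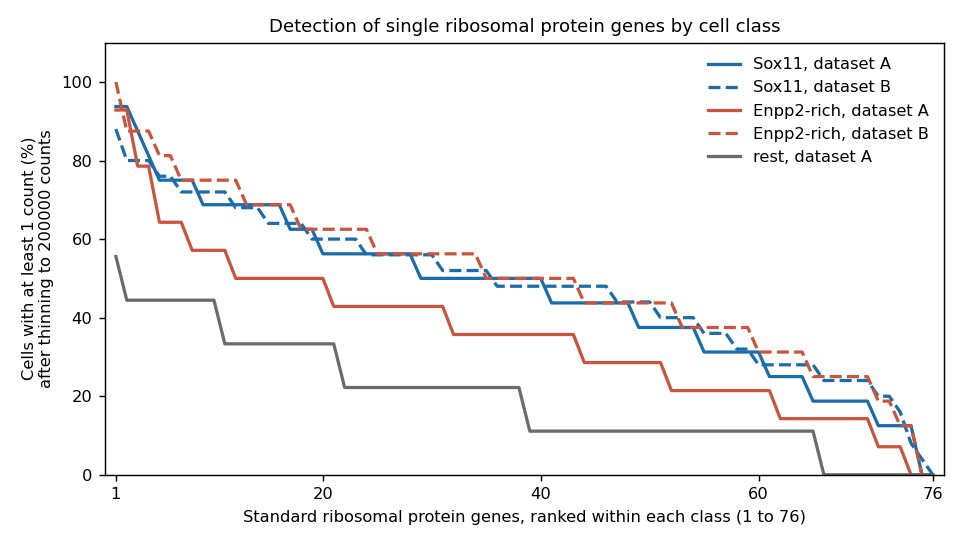
Share of cells with at least 1 count for the 76 standard genes after thinning to 200000 counts, ranked within each class; solid lines are dataset A and dashed lines dataset B. The rest lies lowest, with a median of 16.7%, the Enpp2-rich cells of dataset A have a median of 35.7%, and the other 3 lines run together with medians of 48% to 50%.

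Across genes, the comparison of Sox11 with Enpp2-rich cells asked whether ribosomal protein mRNA differs between the cells with neuroblast genes and those with choroid plexus genes. edgeR's quasi-likelihood test on the 4 pools covered 7160 genes, 82 of them ribosomal protein genes. At an adjusted p of 0.05, 0 of the 82 were called, and 0.0% of all genes tested were called. At an unadjusted p under 0.05 the test had 1022 genes, or 14.3%, and 0 of the ribosomal protein genes. DESeq2 called 1386 genes, or 19.4%, and 0 of the ribosomal protein genes, and limma called 0 of either. In the fit, 59 of the 82 were higher in Sox11 cells and 23 lower, with a median log2 difference of 0.86, while over all genes 4090 of 7160 were higher, with a median of 0.51. The median over the 82 genes was 0.15 with 100 Sox11 counts required, which moved 2 Sox11 cells of dataset A out of the class, and 0.19 without the Sox11 cells of mixed markers. Large subunit genes had a median of 0.73 and small subunit genes of 1.15. Both Sox11 pools lay above both Enpp2-rich pools in 26 of the 82 genes, close to the 31.4% of all genes for which this held. Both lay below in 7, and this held for 17.7% of all genes. The labels do not say whether the datasets came from separate animals, so p-values measure the spread between these pools, which may be technical.

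The 2 datasets differed in what they gave for the same genes. On log2(CPM + 1), 69 of the 82 genes were higher in the Sox11 pool in dataset A, with a median difference of 1.33. In dataset B, 38 were higher, with a median of -0.076. In 35 genes the Sox11 pool was higher in both datasets and in 10 it was lower in both, while 34 were higher in dataset A and lower in dataset B. All genes tested had medians of 0.39 in dataset A and 0.21 in dataset B. Without the Sox11 pool of dataset A the fitted median over the 82 genes was -0.055. With the 4 Sox11 cells of dataset A that had 5 or more choroid plexus list genes left out, the median difference in dataset A was 0.57.

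**Figure D3:**
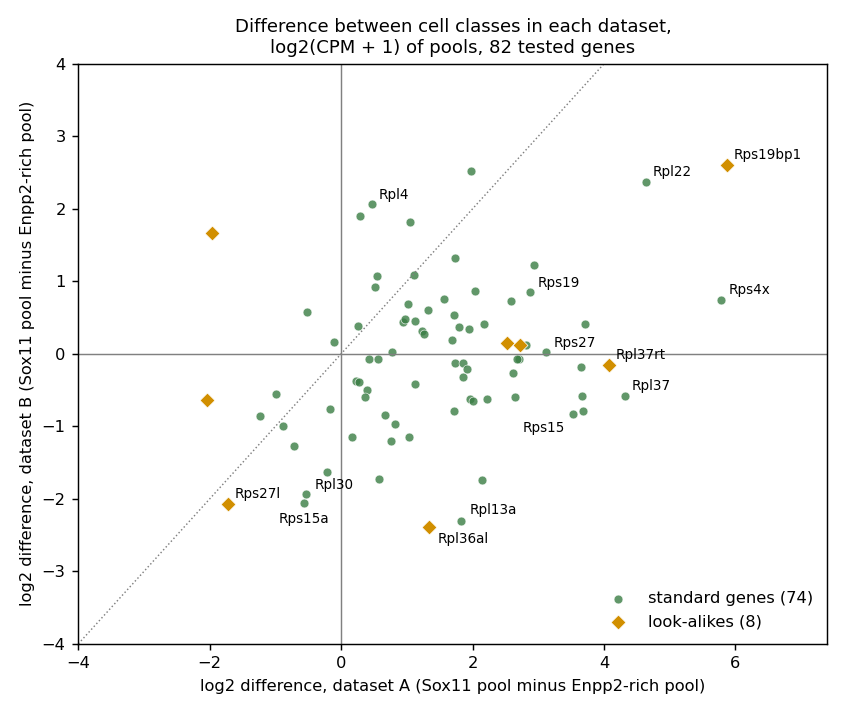
Difference between the Sox11 and the Enpp2-rich pool for the 82 genes tested, log2(CPM + 1), in dataset A (horizontal) and dataset B (vertical); circles are standard genes, diamonds look-alikes, and the dotted line marks equal differences. Points spread to the right of 0 in dataset A and about 0 in dataset B, with Rps27l below 0 in both and Rpl22 and Rps19bp1 above 0 in both.

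The gene with the lowest p was Rps27l, the paralog of the small subunit gene Rps27 and a known target of p53. Its pools stood at 121 and 96.3 CPM in Sox11 cells and at 404 and 407 CPM in Enpp2-rich cells, in dataset A and B, with 60 CPM in the rest. Both Enpp2-rich pools were higher, with differences of -1.73 and -2.07. The fitted log2 difference was -1.94 with an SE of 1.04, and edgeR's quasi-likelihood test with Benjamini-Hochberg adjustment gave an adjusted p of 0.503. Without the Sox11 cells of mixed markers the fitted difference was -2.78. A count was present in 11 of 14 and 13 of 16 Enpp2-rich cells, 6 of 16 and 10 of 25 Sox11 cells and 1 of 9 of the rest. Per cell, Enpp2-rich cells ran from 0 through a median of 256 to 1587 CPM in dataset A and from 0 through 490 to 895 in dataset B, while the median Sox11 cell was at 0 in both. In dataset A, the 4 Sox11 cells with 5 or more choroid plexus list genes had 434 CPM of Rps27l over the 4, from 629, 554 and 1545 CPM in 3 cells and 0.714 CPM in the other, and 2 of the other 12 had it, at 31.7 CPM. No Sox11 cell of dataset B had that many choroid plexus genes.

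Rps27, which encodes a zinc finger protein of the small subunit, had higher Sox11 pools, by little in dataset B. Its pools stood at 1149 and 192 CPM in Sox11 cells, 131 and 189 CPM in Enpp2-rich cells and 314 CPM in the rest. The Sox11 pool was higher by 3.12 in dataset A and by 0.024 in dataset B on the log2 scale. The fitted difference was 2.07 with an SE of 1.22 and an adjusted p of 0.569 (edgeR quasi-likelihood, Benjamini-Hochberg). Within cells, Rps27l exceeded Rps27 in 9 of 14 and 13 of 16 Enpp2-rich cells, and Rps27 exceeded Rps27l in 14 of 16 and 18 of 25 Sox11 cells. On each of the 3 plates of dataset B with both classes, Rps27l was higher in the Enpp2-rich cells: 233 against 62.1 CPM, 450 against 0.363 CPM and 443 against 71.2 CPM. The Enpp2-rich and Sox11 cells numbered 2 and 12, 4 and 3, and 10 and 4. Of these Sox11 cells, 4, 1 and 1 had a count of Rps27l. Rps27 on those plates was at 154 against 198 CPM, 146 against 157 CPM and 217 against 153 CPM, so it was higher in the Enpp2-rich cells on the last of them. On the plate with Sox11 cells alone, Rps27l was at 216 CPM and Rps27 at 214 CPM. Of the counts of the pair, Rps27l took 75.5% and 68.3% in the Enpp2-rich pools, 9.56% and 33.4% in the Sox11 pools and 16.1% in the rest.

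**Figure D4:**
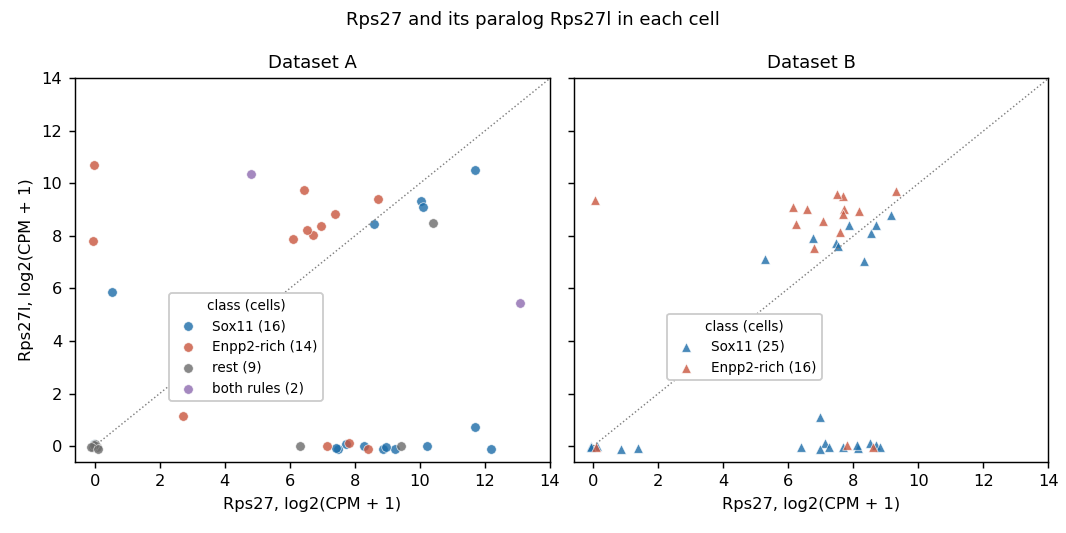
Rps27 and Rps27l in each cell, log2(CPM + 1), with dataset A on the left and dataset B on the right; a shift of at most 0.12 was added so that cells at 0 can be seen, and the dotted line marks equal levels. Enpp2-rich cells lie above the line in 9 of 14 and 13 of 16 cells, and most Sox11 cells lie on or near the lower axis.

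How far reads can separate these genes depends on their sequences, shown here as the first 90 of 252 coding bases, from the start codon, with capitals at bases that differ from Rps27. They were read from GENCODE M39 transcripts on GRCm39, where the coding parts lie at chr3:90120035-90120922 on the minus strand in 4 exons for Rps27, at chr9:66853457-66856636 on the plus strand in 4 exons for Rps27l and at chr9:114811524-114811775 on the minus strand in 1 exon for Rps27rt.
Rps27: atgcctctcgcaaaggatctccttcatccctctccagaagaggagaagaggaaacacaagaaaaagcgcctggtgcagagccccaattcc
Rps27l: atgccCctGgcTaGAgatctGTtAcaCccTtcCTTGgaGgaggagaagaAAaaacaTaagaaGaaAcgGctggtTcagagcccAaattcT
Rps27rt: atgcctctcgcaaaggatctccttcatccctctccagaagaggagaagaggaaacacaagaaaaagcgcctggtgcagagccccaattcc
Rps27l differed from Rps27 at 24 of these bases and at 60 of all 252, an identity of 76.2%. Rps27rt, a retrogene copy, differed at 0 of 252, so a read within the coding part fits both. Rps27rt had 380 and 37 counts in the Sox11 pools and 27 and 16 in the Enpp2-rich pools, against 30207 and 9846, and 2626 and 5214, for Rps27.

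Rps19, a small subunit protein needed to mature the small ribosomal subunit and mutated in Diamond-Blackfan anaemia, stood at 819 and 176 CPM in the Sox11 pools. The Enpp2-rich pools had 110 and 97.3 CPM and the rest 131 CPM. Both Sox11 pools were higher, but 1 cell gave 66% of the counts of the Sox11 pool of dataset A. The fitted difference was 2.22 with an SE of 1.23 and an adjusted p of 0.529 (edgeR quasi-likelihood, Benjamini-Hochberg). After thinning, Rps19 was found in 13 of 16 and 18 of 25 Sox11 cells, in 7 of 14 and 7 of 16 Enpp2-rich cells and in 1 of 9 of the rest. Rps14, the small subunit protein deleted in human 5q- syndrome, had, of the 89 genes, the highest mean level over all 82 cells, 488 CPM. Its pools stood at 1590.3 and 324 CPM in Sox11 cells and 248 and 339 CPM in Enpp2-rich cells, so the groups overlapped. Rpl4 was higher in the Sox11 pool of dataset B, at 723 CPM, and Rps27l in both Enpp2-rich pools, at 404 and 407 CPM. Rps15, which sits near the decoding site, was at 1401 and 79 CPM in Sox11 cells against 121 and 142 CPM, and 1 cell gave 79% of the counts of the Sox11 pool of dataset A. Both Sox11 pools lay above both Enpp2-rich pools for Rps4x, at 142 and 113 CPM against 1.6 and 67.2 CPM from 2 of 16, 10 of 25, 1 of 14 and 6 of 16 cells, and for Rps3a1, at 136 and 155 CPM against 65.4 and 43.2 CPM.

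Rps3, at the mRNA entry of the small subunit and also a DNA repair enzyme, was nearly level: 256 and 224 CPM in Sox11 cells, 277 and 200.1 CPM in Enpp2-rich cells and 235 CPM in the rest. Rps6, the small subunit protein that S6 kinases phosphorylate in growth signalling, was at 46.2 and 103 CPM against 93 and 152 CPM. Rps6 was found in 8 of 14 and 12 of 16 Enpp2-rich cells and 6 of 16 and 12 of 25 Sox11 cells after thinning. The groups overlapped for both genes.

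In the large subunit, Rpl22, an RNA-binding protein with a role in lymphocyte development, had the largest difference among standard genes. Its pools stood at 170.2 and 152 CPM in Sox11 cells, 5.89 and 28.6 CPM in Enpp2-rich cells and 64.5 CPM in the rest. The fitted difference was 3.3 with an SE of 1.94 and an adjusted p of 0.568 (edgeR quasi-likelihood, Benjamini-Hochberg). Few cells carried it: 4 of 16 and 6 of 25 Sox11 cells and 2 of 14 and 3 of 16 Enpp2-rich cells had a count, and 1 cell gave 81% of the counts of the Sox11 pool of dataset A. Its paralog Rpl22l1, which can take its place in the ribosome, was at 5.1 and 49.1 CPM in Sox11 cells and 22.7 and 14.8 CPM in Enpp2-rich cells. Each gene of the pair was found in few cells, and both were found in 0 of 16 and 3 of 25 Sox11 cells and in 1 of 14 and 2 of 16 Enpp2-rich cells.

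Rpl4, a large subunit protein with an arm that lines the exit tunnel, was at 460 and 723 CPM in Sox11 cells against 333 and 172 CPM in Enpp2-rich cells and 122 CPM in the rest. It was found in 10 of 16 and 20 of 25 Sox11 cells and 7 of 14 and 4 of 16 Enpp2-rich cells after thinning. Both Sox11 pools were higher. Rpl41 was at 303 and 95.1 CPM against 203 and 318 CPM, and Rpl37 was at 516 and 50.8 CPM against 25 and 76.2 CPM, and the groups overlapped for both. Rpl37 was higher in Sox11 cells by 4.31 on the log2 scale in dataset A and lower in dataset B, with a difference of -0.58. Rpl10, a protein near the peptidyl transferase centre, stood at 266 and 125 CPM against 81.9 and 109 CPM. Rpl5 and Rpl11, which with 5S rRNA can bind the p53 regulator Mdm2, stood at 168 and 86.8 CPM against 76.9 and 116 CPM for Rpl5, and at 132 and 83.5 CPM against 60.2 and 60.5 CPM for Rpl11.

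Some large subunit genes had negative fitted values. Rpl30, which also binds selenocysteine insertion elements, was at 31.5 and 21.1 CPM in Sox11 cells and 46.1 and 83.7 CPM in Enpp2-rich cells, with both Enpp2-rich pools higher and a fitted difference of -1.29. Rpl38, known for its role in the translation of Hox mRNAs, was at 56.1 and 37.7 CPM against 93.3 and 92.7 CPM, again with both Enpp2-rich pools higher. The fitted difference of Rpl38 was -1.03 with an SE of 1.9 and an adjusted p of 0.98 (edgeR quasi-likelihood, Benjamini-Hochberg). Rpl13a, part of a complex that silences inflammatory mRNAs, had pools of 2.7 and 5.32 CPM against 0.0499 and 30.3 CPM, which overlapped. Its fitted difference was -1.79 with an SE of 3.51 and an adjusted p of 0.982 (edgeR quasi-likelihood, Benjamini-Hochberg), and it became 1.39 with dataset as a block, 0.92 with limma and 6.20 without the Enpp2-rich pool of dataset B. Rpl15 had a fitted difference of -1.25 and pools of 73.8 and 171 CPM against 85.7 and 529 CPM, where 1 cell gave 83% of the counts of the Enpp2-rich pool of dataset B.

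The acidic stalk of the large subunit recruits the translation factors and is formed by Rplp0, Rplp1 and Rplp2 on a base that includes Rpl12. Rplp0 was at 97.8 and 92.6 CPM in Sox11 cells and 41.1 and 74.2 CPM in Enpp2-rich cells. Rplp1 was at 148 and 126 CPM against 126 and 165 CPM, and at 517 CPM in the rest. Rplp2 was at 275 and 24.3 CPM against 69.6 and 38.1 CPM, with 85% of the counts of the first pool from 1 cell. Rpl12 was at 309 and 63 CPM against 39.6 and 26.3 CPM, with 68% of the counts of the first pool from 1 cell. Both Sox11 pools lay above both Enpp2-rich pools for Rplp0 and Rpl12 and not for the other two.

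The look-alikes were found in few cells, apart from Rps27l, Rpl35rt, Rps27rt and Rpl37rt. The 13 had a median of 12.5% and 16% of Sox11 cells, 7.14% and 6.25% of Enpp2-rich cells and 0% of the rest after thinning. Rps19bp1, which encodes a binding partner of Rps19 and is no ribosomal protein, had the largest fitted difference of the 82 genes, 4 with an SE of 3.92 and an adjusted p of 0.861 (edgeR quasi-likelihood, Benjamini-Hochberg). Its pools were at 57.3 and 49.6 CPM in Sox11 cells and 0 and 7.32 CPM in Enpp2-rich cells, from 4 of 16, 3 of 25, 0 of 14 and 1 of 16 cells. The fitted difference became 7.28 with dataset as a block and 13.75 without the Enpp2-rich pool of dataset B, where the pool left was at 0, so it gives no size. Rpl7l1, a paralog of Rpl7 with a role in the assembly of the large subunit, was at 24.6 and 115 CPM in Sox11 cells and 104 and 179 CPM in Enpp2-rich cells. Rpl36al, a paralog of Rpl36a, was at 4.3 and 2.15 CPM against 1.1 and 15.5 CPM. Rpl35rt followed its parent in the number of cells, with a count in 65 cells against 69 for Rpl35, but with 39.7, 3.47, 6.09 and 3.04 CPM in the 4 pools. Rpl37rt was at 44.3 and 3.63 CPM in Sox11 cells and 1.7 and 4.13 CPM in Enpp2-rich cells. Rps4l was found in 4 Sox11 cells of dataset B. Rpl27rt, Rpl6l, Rps3a2 and Rps3a3 had a count in 8, 2, 6 and 4 cells and did not pass the filter on low counts. Rps4l, with 1091 counts, Rps10, with 996, and Rpl24, all at 0 in dataset A, did not pass it either.

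Several standard genes that most cells express were nearly missing. Rpl24, a protein that bridges the subunits, had 6 counts in 2 of 82 cells, and Rps10, near the mRNA entry, had 996 counts in 7 cells. Both lie in the later rows of the table, so these cells can only be among the 41 of dataset B. Rps12 was found in 14 cells, Rpl39 in 15 and Rpl13a in 16. In the GENCODE M39 annotation of GRCm39, which may not be the authors' annotation, 3 of the 76 standard genes have more than 50% of their exon bases under another gene on the same strand: Rpl24 with 71.5%, Rpl13a with 59.3% and Rps10 with 53.6%. Those 3 were found in 2 to 16 cells with a median of 7, and the other 73 in 14 to 69 cells with a median of 39. These numbers are not on an equal footing, since Rpl24 and Rps10 could be found among 41 cells only. No exon base of Rps12 or Rpl39 lies under another gene on the same strand. The strand setting of the counting is not given, and on either strand further standard genes pass 50%. Among these, Rpl35 with 68.9% was found in 69 cells, Rpl5 with 66.1% in 53 and Rpl31 with 57.6% in 38. The part of overlap in detection was not tested. Sequence shared with other genes was common among the standard genes: in the median gene, 50.1% of all 50-base windows of the transcript were also found in another gene. The 38 genes with more than 50% shared windows were found in a median of 36 cells and the 38 with less in 42.5. The rank correlation of shared windows with the number of cells was -0.131 over the 76 genes, given as a description. How reads matching several genes were counted is not given in the sources used here, so the level of a gene with copies is uncertain.

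**Figure D5:**
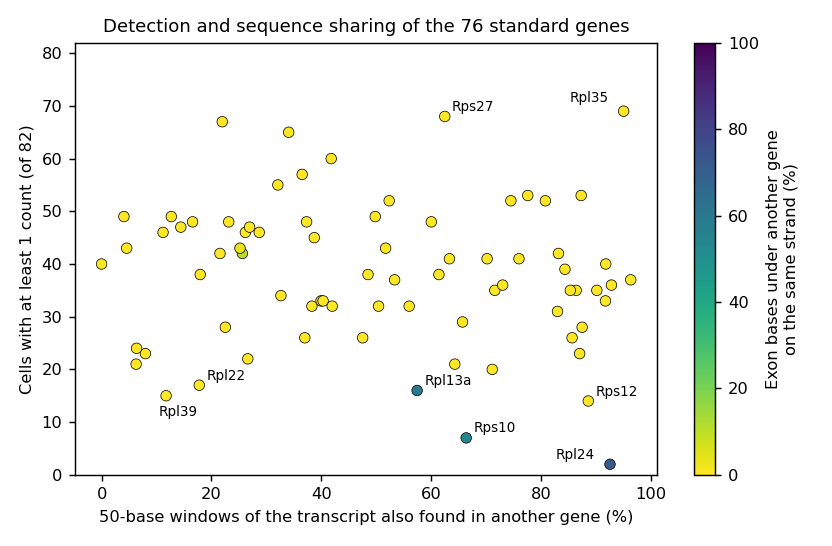
Number of cells with a count (of 82) against the share of 50-base windows of the transcript found in another gene, for the 76 standard genes; colour is the share of exon bases under another gene on the same strand. Rpl24, Rps10 and Rpl13a, the 3 genes above 50% overlap, lie at 16 cells or fewer, while Rpl35, most of whose windows are shared, was found in 69 cells.

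At the start sites of the standard genes, 2 motifs were searched that the choice of genes did not use. RefSeq promoter windows on GRCm38.p6 matched 56 of the 76 genes. The letters CTT followed by 2 pyrimidines (C or T) on the sense strand, from 10 bases before to 15 after the start, were present in 27 of them, or 48.2%, and in 15.4% of 27025 genes with a RefSeq window. The ETS-type motif CCGGAAG on either strand, from 250 bases before to 50 after the start, was present in 23, or 41.1%, and in 9.93% of all genes. A gene was counted for a motif if any of its listed starts had it. The number of starts was not matched between the standard genes and all genes. The windows of the contrasting pair are shown from 15 bases before the start, with the letters of the first motif in capitals and any other pyrimidines in lower case, on the minus strand of chr3:90213634-90213663 for Rps27 and the plus strand of chr9:66946071-66946100 for Rps27l.
Rps27: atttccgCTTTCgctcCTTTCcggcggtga
Rps27l: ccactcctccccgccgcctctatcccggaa
Rps27 has the first motif on both sides of its start and Rps27l does not have these letters in this window. The ETS-type motif was found at a listed start of Rps27l and not of Rps27. Other genes did not divide this way: Rps19 has neither motif at a listed start, Rpl22l1 has the first in its window, and Rpl22 has it at another listed start only. A match is a description of letters and not of a site in use.

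Across cells, the genes moved together weakly. Over 41 Sox11 cells, the Spearman correlation of a gene with the mean of the other members, on log2(CPM + 1), had a median of 0.328 over 75 genes, from -0.131 for Rpl21 to 0.638 for Rps6. Over 30 Enpp2-rich cells the median was 0.319 over 73 genes, from -0.227 for Rpl30 to 0.757 for Rpl35a. The number of ribosomal protein genes found in a cell went with the number of all genes found, with rank correlations of 0.814 in Sox11 cells and 0.875 in Enpp2-rich cells. These cells share plates, depth and library preparation, and the values are descriptions.

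Other genes of the translation apparatus, from lists chosen with earlier results of these data known, were set beside the ribosomal proteins in the same test, and 0 of any list was called. The mitochondrial ribosomal proteins, which serve the ribosomes of mitochondria, had a negative median. Of 75 tested, 26 were higher and 49 lower in Sox11 cells, with a median log2 difference of -0.74 and both Enpp2-rich pools above both Sox11 pools in 22, beside the 17.7% of all genes for which this held. Their median difference on log2(CPM + 1) came to 0 for dataset A and to -1.17 for dataset B. Their summed levels were 7308 and 3951 CPM in the Sox11 pools, 5118 and 9220.2 CPM in the Enpp2-rich pools and 2838 CPM in the rest. Elongation factors and other mRNAs with oligopyrimidine tracts had a median of 1.28, with 12 of 17 higher. The elongation factor Eef1a1 stood at 820.2 and 1213 CPM in Sox11 cells, 438 and 840.5 CPM in Enpp2-rich cells and 729 CPM in the rest, and Eef2 stood at 3621 CPM in the rest against 288 to 551 CPM in the other pools. Initiation factors had a median of 0.77, with 25 of 31 higher. Ribosome assembly genes had a median of 0.86, with 16 of 25 higher, among them the nucleolar protein gene Ncl at 440.1 and 449 CPM against 191 and 194 CPM. Genes of growth signalling to ribosomes had a median of 0.36, with 9 of 17 higher. Of 4 other ribosome components outside the naming rule, 2 were higher and 2 lower, with Rack1, a scaffold protein of the small subunit, at 615 and 201 CPM in Sox11 cells against 70.1 and 156 CPM. Over those 4 genes the median difference was 1.30 for dataset A and -0.88 for dataset B.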

How the data were processed

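The authors deposited 1 table of raw counts per gene and cell. Per the submitters' processing notes, FastQC 0.12.1, STAR 2.7.10b, featureCounts and Subread 2.1.1 were used, and GRCm39 and mm10 are both named without roles. Annotation, strand setting and the treatment of reads matching several genes are not given in the sources used here. Per the labels' protocols, cDNA was made by template switching and preamplified by PCR, without mention of molecular identifiers.

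The ribosomal protein genes, the gene lists and the tests were chosen with earlier results of these data known. Counts were scaled to CPM without Ttr and Enpp2. For detection, cells were thinned to 200000 counts without replacement (random seed 1). Counts were summed by class and dataset, and a pool needed 3 cells. Pools were tested with edgeR 4.0.16 (R 4.3.3; filterByExpr, TMM, quasi-likelihood test, Benjamini-Hochberg over all genes tested, threshold 0.05), with DESeq2 1.42.0 and limma 3.58.1 as alternatives. Cells are not replicates; n is 2 pools per class. The rest had 1 pool and was described without a test.

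Dataset was not a block in the fit. Class pools of the same dataset deviated together, with a correlation of 0.302 over 7160 genes, and the pairing comes from the dataset label. Pools of a dataset share the sort gate, plates and library work, and which of these is behind the correlation was not tested. The common dispersion was 3.47. With simulated counts of that dispersion, 0% of genes with a log2 change of 6 were called, against 100% at a dispersion of 0.1, so a count of 0 calls says little at this spread. Python 3.11.15, numpy 2.4.6, pandas 2.3.3, scipy 1.17.1 and matplotlib 3.10.9 were used. Binomial intervals are exact (Clopper-Pearson). Transcript lengths, overlaps and coding sequences came from GENCODE M39 (GRCm39), and promoter windows from RefSeq (GRCm38.p6).

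Genes are named by these rules: the 5 lowest p, the 5 largest positive and negative fitted differences, the 10 highest mean levels, the 5 standard genes in the fewest cells, look-alikes with their partners, the stalk genes and Rps6, Rpl5, Rpl11, Rps3, Rpl10, Rpl22, Rpl38 and Rpl41, and up to 4 genes by mean level of other lists. Some genes that these rules select are not reported here. Left out were a list of sequencing runs and the rows named -ps or -rs.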

Additional observations from a re-analysis of the deposited data

Results flagged for a closer look

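Several results differed in sign between dataset A and dataset B, with values near 0 in dataset B for the summed level and the median, and the difference between the datasets was not tested, since each class has 1 pool per dataset. The log2 ratio of the summed level, Sox11 over Enpp2-rich pool, came to 1.53 for dataset A and -0.0067 for dataset B. The median log2 difference over the 82 genes came to 1.33 for dataset A and -0.076 for dataset B. Among named genes, the log2 differences in dataset A and dataset B were 3.53 and -0.84 for Rps15, 1.82 and -2.30 for Rpl13a, 1.34 and -2.39 for Rpl36al, 4.31 and -0.58 for Rpl37 and 4.07 and -0.15 for Rpl37rt.

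Rows named -ps or -rs, which the naming rule left out, held 5265 counts over all cells, with a count in 124 of 135 rows. Their summed level was 84 and 24.9 CPM in the Sox11 pools, 21.3 and 19.5 CPM in the Enpp2-rich pools and 30.8 CPM in the rest.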

How the results depend on the processing

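Over 23 alternatives of normalization, filter, tool, class rule and pools, 0 ribosomal protein genes were called in each, and the median log2 difference over the genes tested ran from -0.055 to 1.23. Leaving out 1 pool at a time gave 0 to 0 calls, medians of -0.055 to 1.21 and a mean log2 ratio of the summed level of 0.15 to 1.37. The lone pool left in a class was then assumed to vary like the pools of the other class. The summed ratio stayed within 0.15 to 1.37 over 13 alternatives, and the difference in genes detected ran from 2 to 5.5 over 5. At 10 counts or more, the medians of dataset B were 31 in Sox11 and 32 in Enpp2-rich cells, which turns the direction there. With dataset as a replicate block, 0 genes were called, 611 genes had an unadjusted p under 0.05, and the median over ribosomal protein genes was 0.78. Over all genes, the calls were 1386 with DESeq2, 377 with no filter, 202 without the Sox11 pool of dataset A, 126 without that of dataset B and 59 with all pools of the 3 classes. At an unadjusted p under 0.05, limma gave 1 ribosomal protein gene and the fit without the Sox11 pool of dataset B gave 2.

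Single genes changed sign under some alternatives, and the cause was not tested. Rpl13a became 1.39 with the block and 0.92 with limma. It was positive, as were Rpl15 and Rpl36al, without the Enpp2-rich pool of dataset B, and Rps15 and Rps27rt were negative without the Sox11 pool of dataset A. Rps15 became -0.17 at 100 Sox11 counts. With the cells that met both rules added to the Enpp2-rich cells, Rps27 became -0.18 and Rps27rt -0.72. Rps27l stayed negative throughout, from -2.93 to -1.18, with a lowest adjusted p of 0.167, and Rps19, from 0.68 to 2.93, and Rpl22, from 2.45 to 4.74, stayed positive. With 1 pool left out at a time, Rpl13a ran from -2.75 to 6.20, Rpl15 from -1.97 to 0.49, Rpl36al from -2.12 to 1.51, Rps15 from -0.79 to 3.39 and Rps27rt from -0.55 to 3.83. The alternatives that left out cells of mixed markers, that ended the table at the last dataset A count and that averaged cells were chosen after the data were seen. The comparisons with the rest were not tested under any alternative. The order of the Sox11 pool of dataset A and the rest turned with 100 Sox11 counts required, when the pool of the rest was at 18047.9 CPM and the Sox11 pool at 10887.6, against 6838 and 19059.7 as reported. The rest stood above the Enpp2-rich pool of dataset A as reported and below it, at 2451 against 5545 CPM, by the median of cells. It was also below at 5159 against 6203 CPM by the mean of cells and at 6680.0 against 6733 CPM without the deepest cell of each pool. With Enpp2 required at 5%, the rest also held 3 cells of dataset B, with 9200.5 CPM of ribosomal protein mRNA, and that test was not run.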

Other observations

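The cells with the lowest ribosomal protein levels were led by different genes. Among the 5 cells of the rest with 11 or more astroglia list genes, the highest member was Rpl5 in 1 cell, with 25.9% of the member counts, Rps24 in another, with 35.7%, and Rpl30 in another, with 50.8%. Over the whole class, the highest gene of a cell took a median of 27.3% of the member counts in the rest, against 14.3% and 14.2% in Sox11 cells and 14.4% and 11% in Enpp2-rich cells.

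The share of a gene's counts that came from its highest cell was high in dataset A. The median over members was 48% in its Sox11 pool, 46.1% in its Enpp2-rich pool and 92.5% in the rest, against 19.7% and 28.1% in the pools of dataset B. Of the members with a count, 41 of 85, 35 of 82 and 71 of 74 took more than 50% from 1 cell in dataset A, and 9 of 89 and 13 of 84 in dataset B.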
